A study of Drosophila melanogaster with 2 samples.

Results

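Bound divergent promoters are peaks of dimm binding that sit at a pair of protein-coding genes read away from each other from neighbouring start sites. They were chosen from the authors' conservative list of peaks found in both replicates, after overlapping peaks on the main chromosome arms had been joined and each joined region had kept the summit, the point of highest enrichment, of its strongest peak. A region was a member when its summit lay no more than 500 bp from an annotated transcription start site (TSS) and when TSSs of opposite strands, pointing apart and at most 1000 bp from each other, both lay within 1000 bp of the summit. Of 1739 regions, 754 were at a promoter by the first condition and 292 were members. The other 462 bound promoters lacked such a pair, and 985 regions lay farther than 500 bp from any TSS. The conservative list itself keeps peaks by how well their ranks match between the replicates, so signal and replicate agreement entered the choice there. The DNA sequence played no part in it.

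The peaks come from chromatin immunoprecipitation followed by sequencing (ChIP-seq) of whole Drosophila melanogaster embryos aged 0 to 24 hours. The embryos were of the strain dimm-GFP, in which an insertion makes a fusion of dimm with eGFP, and an anti-GFP antibody was used for the immunoprecipitation (the antibody field of the labels itself reads dimm). There was 1 group with 2 biological replicates of the same donor strain, no second condition, and no control library was used here. Since whole embryos mix all tissues, a signal cannot be assigned to a cell type. The signal of a peak is the authors' own deposited value, its normalization is not given in the sources used here, and the depth of the libraries is unknown. It was therefore used only to rank and describe peaks within a list.

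At a divergent promoter, genes on opposite strands are transcribed outward from a shared stretch of DNA that is usually kept free of nucleosomes. Such arrangements are common in the compact Drosophila genome and are frequent among housekeeping genes. The factor mapped here, dimm (dimmed), is a basic helix-loop-helix (bHLH) protein best known from the neuroendocrine cells that make and secrete peptides. In general, bHLH proteins bind E-boxes, short sites with the letters CANNTG.

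The DNA between the start sites is shown for the 6 strongest members whose TSSs lay 60 to 300 bp apart with no annotated exon between them, since this is the stretch in which most summits fell. Each stretch is read 5′ to 3′ on the plus strand of the Release 6 genome (dm6 coordinates). It runs from the base after the TSS of the minus-strand gene, named first, to the base before the TSS of the plus-strand gene. Capitals mark matches on either strand to any of 12 short motifs described with the motif results. The intervals are chr3R:29736746-29736964 for CG7601/CIA30, chr3R:15229409-15229664 for Art3/mRpS10, chr3L:5139396-5139618 for Tcs5/CHMP2B, chr3L:22878985-22879088 for Chro/Ssl1, chr2L:8376798-8377034 for CG13390/CG17294 and chr3L:9426759-9427009 for Atat/Shc.
CG7601/CIA30: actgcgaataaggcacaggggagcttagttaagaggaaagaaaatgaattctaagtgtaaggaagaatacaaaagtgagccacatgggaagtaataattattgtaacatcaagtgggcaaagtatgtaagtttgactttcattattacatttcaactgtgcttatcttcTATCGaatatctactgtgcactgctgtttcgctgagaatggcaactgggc
Art3/mRpS10: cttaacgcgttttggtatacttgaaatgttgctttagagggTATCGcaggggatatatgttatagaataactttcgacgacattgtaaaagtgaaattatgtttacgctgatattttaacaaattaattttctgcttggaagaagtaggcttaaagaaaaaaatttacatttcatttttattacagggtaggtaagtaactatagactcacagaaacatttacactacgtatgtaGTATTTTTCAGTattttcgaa
Tcs5/CHMP2B: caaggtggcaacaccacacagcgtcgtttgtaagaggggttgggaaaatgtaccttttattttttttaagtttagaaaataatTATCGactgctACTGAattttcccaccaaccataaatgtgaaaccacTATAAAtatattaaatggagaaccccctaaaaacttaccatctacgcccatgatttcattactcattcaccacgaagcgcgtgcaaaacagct
Chro/Ssl1: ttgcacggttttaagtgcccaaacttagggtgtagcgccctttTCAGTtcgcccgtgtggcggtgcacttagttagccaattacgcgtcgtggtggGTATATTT
CG13390/CG17294: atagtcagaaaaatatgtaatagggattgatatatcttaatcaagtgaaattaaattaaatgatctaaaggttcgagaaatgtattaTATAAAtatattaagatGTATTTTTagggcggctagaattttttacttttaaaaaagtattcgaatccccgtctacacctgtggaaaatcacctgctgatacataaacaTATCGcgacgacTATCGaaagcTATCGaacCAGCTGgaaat
Atat/Shc: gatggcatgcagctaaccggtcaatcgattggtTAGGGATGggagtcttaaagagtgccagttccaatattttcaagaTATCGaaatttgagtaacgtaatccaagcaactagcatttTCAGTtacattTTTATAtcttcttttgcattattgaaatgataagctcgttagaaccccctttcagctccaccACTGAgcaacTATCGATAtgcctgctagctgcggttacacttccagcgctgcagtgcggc

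These 6 stretches were 104 to 256 bp long, and 49.0% to 69.9% of their bases were A or T. The summit fell on base 102 of the 219 in CG7601/CIA30, base 125 of the 256 in Art3/mRpS10, base 93 of the 223 in Tcs5/CHMP2B, base 83 of the 237 in CG13390/CG17294 and base 119 of the 251 in Atat/Shc, counted from 1 at the left end. In Chro/Ssl1, which has the shortest of the 6 gaps, the summit lay outside the printed stretch, 86 bp inside the Chro gene. The pentamer CGATA or its reverse complement TATCG was present in 5 of the 6, and only the Atat/Shc stretch held the longer TATCGATA.

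The highest signal of the whole list, 926, lay between Ugalt, which encodes a UDP-galactose transporter, and eIF2Bbeta, a subunit of the translation factor eIF2B, on X (2703756 to 2704028). In each replicate's own ranked list the strongest candidate overlapping it had a signal of 469 in replicate 1 and 466 in replicate 2. At mRpL41/CG8079, where mRpL41 encodes a protein of the large subunit of the mitochondrial ribosome, the joint signal was 885, with 455 in replicate 1 and 431 in replicate 2. CG7601/CIA30, with CIA30 a factor in the assembly of respiratory complex I, had a joint signal of 813, with 411 in replicate 1 and 420 in replicate 2. Replicate 1 was the higher at Ugalt/eIF2Bbeta and mRpL41/CG8079 and replicate 2 at CG7601/CIA30. Because the list was made by replicate agreement, such values describe the members and do not test their reproducibility.

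Next in order were Art3/mRpS10 (joint signal 699.8, replicate 1 348, replicate 2 353) and PNPase/Gprk2 (joint signal 699.7, replicate 1 325, replicate 2 367). Art3 encodes an arginine methyltransferase, mRpS10 a protein of the small mitochondrial subunit, PNPase an RNA-degrading enzyme of mitochondria, and Gprk2 a G protein-coupled receptor kinase. Tcs5/CHMP2B had a joint signal of 679, with 354 in replicate 1 and 322 in replicate 2, and CHMP2B is a member of the membrane-cutting ESCRT-III complex. The remaining 9 of the 15 strongest members were mRpS23/CenG1A, Chro/Ssl1, CG5611/Mtl, Fbw5/CG9147, mRpL23/CG9004, CG13390/CG17294, Pex11ab/CG8320, CG1275/Elp5 and tank/CG12194, with joint signals of 629 down to 435. Among their genes, Chro encodes Chromator, a protein of chromosomes and the spindle, Ssl1 a subunit of the general factor TFIIH, Mtl a Rac-type GTPase and Elp5 a subunit of Elongator. All 15 were in both replicates' own thresholded lists. The least even of them was CG5611/Mtl, with 333 in replicate 1 and 229 in replicate 2.

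In the middle of the range the members and the other bound promoters had almost equal signals. The joint signal ran from 54.6 to 926 with a median of 107.3 over the 292 members, against 25 to 888 with a median of 107.3 over the 462 other bound promoters, a ratio of medians of 1.00. In the replicates' own thresholded lists the medians were 65.9 for divergent promoters and 64.2 for other promoters in replicate 1, and 65.2 for divergent promoters and 66.8 for other promoters in replicate 2. The replicates thus lay on opposite sides of equality, with ratios of 1.03 and 0.976. Regions outside promoters had a lower median joint signal, 83.1.

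The extreme top of the list held more members than other bound promoters. Of the 15 strongest regions of the joint list, 9 were divergent promoters and 3 were other promoters, and in each replicate's own list the counts were 9 and 2. The divergent share at this depth, 60%, has a wide interval (95% Wilson interval 35.7 to 80.2%, counting error only), beside 16.8% of all 1739 regions. Among the strongest 50 regions there were 18 divergent and 16 other promoters in the joint list, 18 and 16 in replicate 1 and 19 and 14 in replicate 2. Among the strongest 100 there were more other promoters, with 31 divergent and 37 other promoters in the joint list. The counts were 33 and 36 in replicate 1 and 27 and 38 in replicate 2. Other promoters also outnumber members over the whole list, 462 to 292, so these counts alone do not put members behind at this depth. A joint signal of at least 500 was reached by 11 of 292 members (3.77%, 2.12 to 6.62%) and by 6 of 462 other promoters (1.30%, 0.597 to 2.80%), so these intervals overlapped.

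Every member had a candidate in both replicates' ranked lists. Over the 292 members, the candidates' signal was 24.3 at the lowest, 54.6 at the median and 469 at the highest in replicate 1, and 24.6, 53.2 and 466 in replicate 2. The ratio of replicate 1 to replicate 2 had a median of 1.05 in members and 0.992 in the 453 other promoters with a candidate in both. The ranks of the replicates' signals were similarly related in members (Spearman's rho 0.801 over 292 regions) and in those other promoters (0.800 over 453). These are descriptions, since all points share the same pair of libraries. The candidates' summits in the replicates were a median of 15 bp apart at members and 21 bp apart at other promoters.

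**Figure D1:**
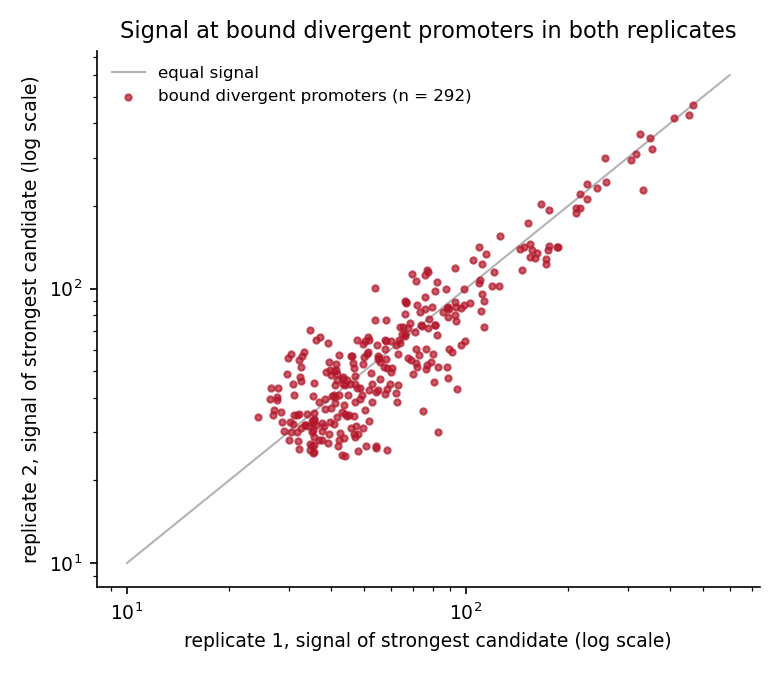
Signal of the strongest candidate peak overlapping each of the 292 bound divergent promoters in replicate 1 (horizontal axis) and replicate 2 (vertical axis), in the authors' signal units on log scales. Points are regions and the grey line marks equal signal; the points follow the line, and the strongest member has 469 in replicate 1 and 466 in replicate 2.

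The 3 least even members all had more signal in replicate 1. At MED30/Rev1 the signal was 82.8 in replicate 1 and 30.1 in replicate 2, at tum/Uba3 it was 58.5 and 25.8 in the same order, and at Ino80/Aptx it was 94.1 and 43.2, which makes ratios of 2.75, 2.27 and 2.18. MED30 is a Mediator subunit, Uba3 a subunit of the enzyme that activates NEDD8, and Ino80 a chromatin remodeller. At the other extreme, ninaG/Sptz had 77.83 and 77.77, SerRS/CG17260 had 62.3 and 62.4, and GCS2beta/CG5131 had 55.5 and 55.7. SerRS encodes seryl-tRNA synthetase and GCS2beta a subunit of glucosidase II.

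The joint call drew on members that each replicate alone did not list. By at least 1 bp, 215 of 292 members (73.6%) overlapped replicate 1's own thresholded list and 189 (64.7%) replicate 2's, and 169 (57.9%, 52.1 to 63.4%) overlapped both, beside 47.0% of all 1739 regions. Of the 462 other promoters, 310 (67.1%) overlapped replicate 1's list, 311 (67.3%) replicate 2's and 254 (55.0%, 50.4 to 59.5%) both. Members listed by replicate 1 alone numbered 46 (15.8%) and those listed by replicate 2 alone 20 (6.85%), against 56 (12.1%) and 57 (12.3%) of the other promoters. A further 57 members (19.5%, 15.4 to 24.5%) were in neither replicate's own list. The divergent share of bound promoters was 40.8% in replicate 1's list and 37.0% in replicate 2's, a mean of 38.9 ± 2.68% (SD, n = 2 replicates), and 38.7% in the joint list.

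The summits lay between the start sites in most members. Of 292 summits, 220 (75.3%, 70.1 to 79.9%) were between the TSSs of the pair, 42 were inside the minus-strand gene and 30 inside the plus-strand gene. The replicates' own lists gave 73.6% in replicate 1 and 75% in replicate 2. The rule asks only that the summit be close to both TSSs, so it favours this position without fixing it. Distances to the TSSs are set in part by the rule and are given as descriptions.

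The TSSs of members were a median of 275.5 bp apart, with 202 bp at the 25th and 438.5 bp at the 75th percentile. Summits were a median of 74.8 bp from the midpoint of the TSSs, and 115 of 292 (39.4%) lay within 50 bp of it. Where the summit was between the TSSs, its median place was 49.8% of the way from the minus-strand to the plus-strand TSS, and 143 of 220 (65.0%, 58.5 to 71.0%) were in the middle 50% of the gap. Where it was outside, the gap was short, with a median of 72.5 bp in these 72 members against 309.5 bp in the 220. Each member was placed by its qualifying pair with the shortest gap, and a short gap leaves little room for a summit. This difference in gap therefore follows in part from the geometry. The outside summits lay a median of 106.5 bp beyond the nearer TSS. Joint signal was much the same in these classes, with a median of 107 for the outside and 108 for the between summits.

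**Figure D2:**
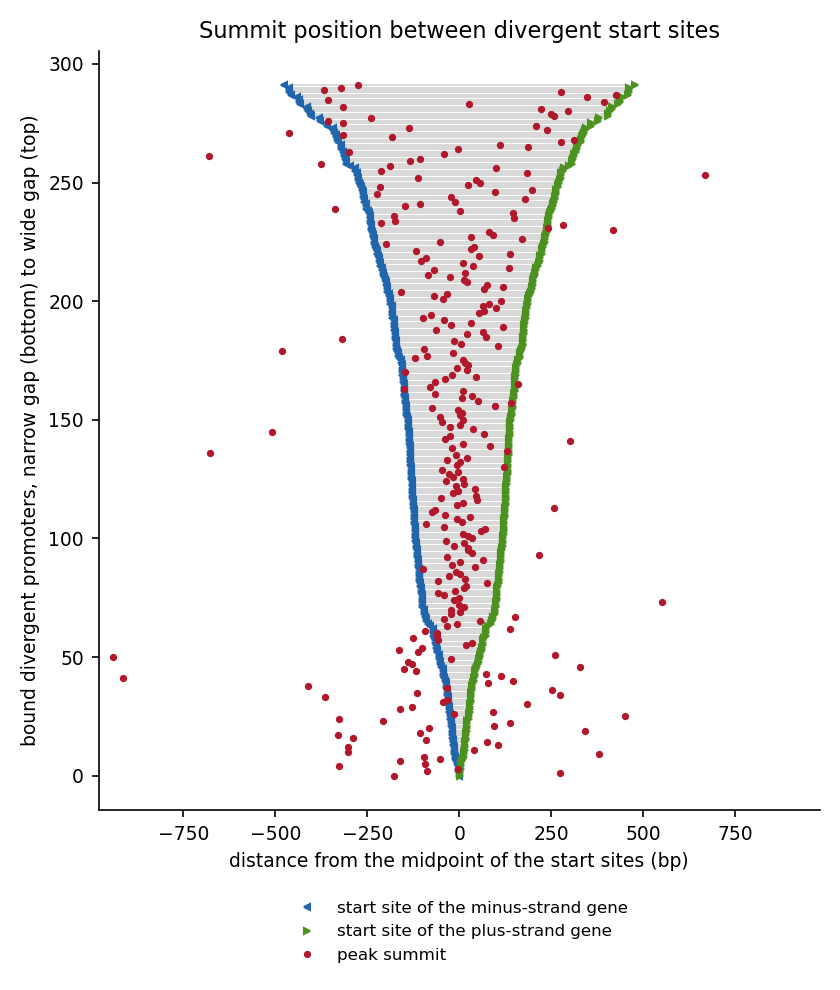
Position of the peak summit (red) and of the start sites of the minus-strand gene (blue) and plus-strand gene (green) for all 292 bound divergent promoters, as distance in bp from the midpoint of the start sites. Rows run by distance between the start sites; 220 summits fall between the start sites, and the 72 outside have a median gap of 72.5 bp.

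The members at the ends of the range show the limits of the rule. The shortest gaps, 2, 2 and 6 bp, were at dpa/didum (joint signal 71.3), CG11710/mal (joint signal 70.99) and CG3032/CG4593 (joint signal 114). The widest, just inside the limit of 1000 bp, were 955 bp at Ank2/Mcad (joint signal 112) and 923 bp at Ac78C/chb, which holds separate members with joint signals of 147 and 73.4. Just outside the limit were SLC5A11/CG8419 at 1039 bp (joint signal 274), CG12402/Or88a at 1124 bp (joint signal 87.0) and Fsn/Dp at 1132 bp (joint signal 162), which count here as other promoters. The limit of 500 bp from a TSS was not reached, since the farthest members were mRNA-cap/CG32599 at 406 bp, Sps1/conv at 376 bp and scramb2/Sk2 at 372 bp. Among regions that otherwise met the geometry of a divergent pair, the nearest beyond it were Keap1/kuk and CG4042/Pitslre, both at 533 bp, and wde/CG12935 at 537 bp. The 6 genes with the shortest gaps include dpa, a subunit of the MCM replicative helicase, and didum, a class V myosin.

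Most annotated divergent pairs had no summit. The annotation holds 2667 divergent pairs of protein-coding genes by the rule's geometry, made of 5052 of 13968 protein-coding genes (36.2%). By the rule, 331 pairs were bound, which is 12.4%. Replicate 1's own list gave 9.30% and replicate 2's gave 8.02%. At 20 of the 292 members more than 1 pair of genes met the rule.

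The highest shares of bound pairs were found where the TSSs were over 200 and up to 400 bp apart. In this class 162 of 942 pairs were bound (17.2%, 14.9 to 19.7%), against 81 of 786 pairs with a shorter gap (10.3%, 8.37 to 12.6%) and 88 of 939 with a wider gap (9.37%, 7.67 to 11.4%). Replicate 1's own list gave 13.3% for the middle class, 7.25% for the shorter and 7.03% for the wider gaps, and replicate 2's gave 11.0%, 6.49% and 6.28% in the same order. The narrower class of over 200 and up to 250 bp had the highest share, 20.2% (49 of 242, 15.7 to 25.8%), with 17.8% by replicate 1's list and 13.6% by replicate 2's. Its neighbour at over 150 and up to 200 bp had 6.71% (10 of 149, 3.69 to 11.9%), with 5.37% and 6.04% by the same lists. That neighbour was the lowest class in the joint list and in replicate 1's, while in replicate 2's the classes of over 100 and up to 150 bp (4.33%) and over 700 bp (4.19%) were lower. The class limits were chosen with these values known, so the contrast is a description.

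**Figure D3:**
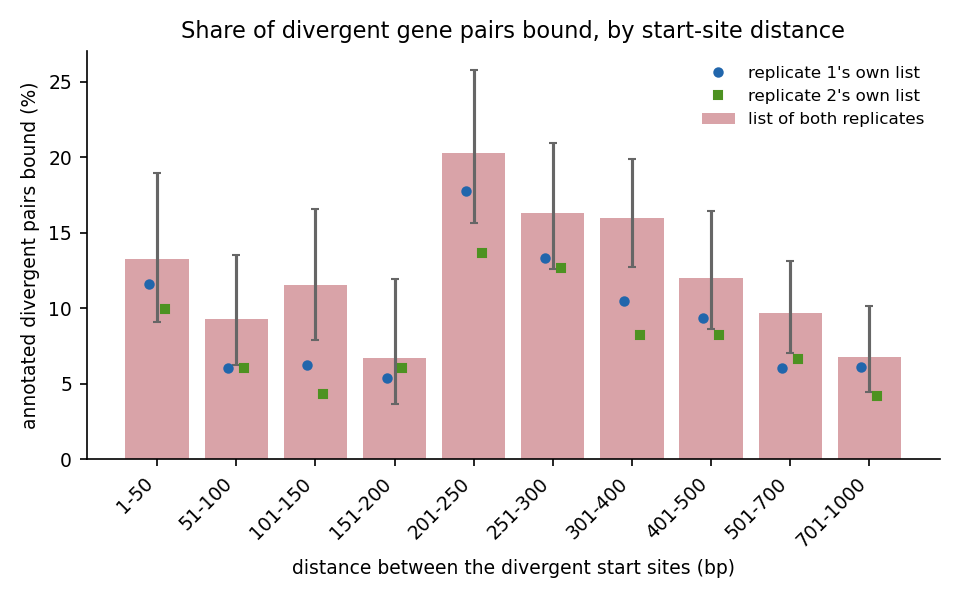
Percentage of annotated divergent gene pairs bound, by distance in bp between the start sites. Bars are the list of both replicates with 95% Wilson intervals, circles replicate 1's own list and squares replicate 2's. The bar for over 200 and up to 250 bp is the highest, at 20.2%. The next shorter class has 6.71%, and the next wider class has 16.3%, with an interval that overlaps that of the highest bar.

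A larger share of the genes in divergent pairs than of other genes was bound, in the joint list and in each replicate's own list. Of the 5052 genes in pairs, 620 (12.3%, 11.4 to 13.2%) had a summit within 500 bp of a TSS of their own, against 346 of 8916 genes in no pair (3.88%, 3.50 to 4.30%) and 6.92% of all 13968. Replicate 1's list gave 9.50% of genes in pairs and 2.86% of the others, and replicate 2's 8.27% and 3.03%. A single summit can serve both genes of a pair, so the DNA within 500 bp of a TSS was also compared. It held 347 summits in 4.55 Mb for genes in pairs, or 76.3 summits per Mb, and 355 summits in 10.9 Mb for the other genes, or 32.7 per Mb.

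The share of divergent pairs that were bound was lower on X than on each large autosome arm. On X, 30 of 403 annotated divergent pairs were bound (7.44%, 5.26 to 10.4%), against 301 of 2253 on 2L, 2R, 3L and 3R together (13.4%, 12.0 to 14.8%). Each of those arms had a higher share than X, from 11.4% on 2R to 15.5% on 3R. The small chromosome 4 had 0 of 11 pairs bound. Replicate 1's own list gave 5.46% on X and 10.03% on the autosome arms, and replicate 2's 3.72% and 8.83%. Genes in no pair had the opposite order, with 78 of 1413 bound on X (5.52%, 4.45 to 6.84%) and 268 of 7422 on the autosome arms (3.61%, 3.21 to 4.06%). Genes in pairs still had the higher share on X, 8.05% (6.34 to 10.2%) against 5.52%, but on the autosome arms it was 13.1% (12.1 to 14.2%) against 3.61%. The share of protein-coding genes that belong to a divergent pair was close on all these arms, 35.7% on X and 35.9% to 37.0% on the others. Of the 137 bound promoters on X, 29 were divergent (21.2%, 15.2 to 28.7%), against 263 of 617 on the autosome arms (42.6%, 38.8 to 46.6%). In replicate 1's list these shares were 23.3% and 44.1%, and in replicate 2's 15.6% and 41.5%. The sex of the embryos was not collected, per the labels, and copy number was not analysed here.

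**Figure D4:**
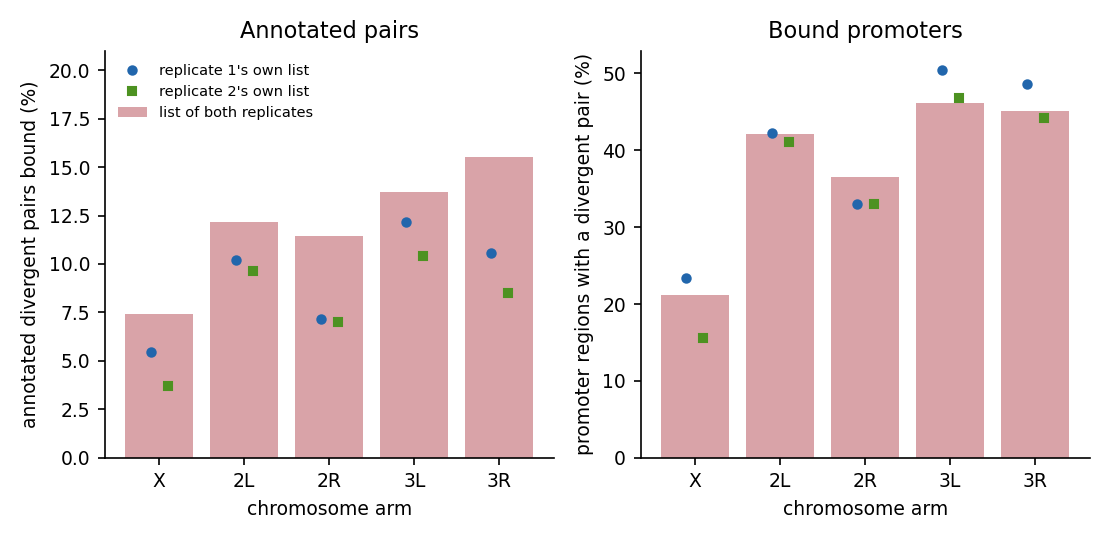
Left, percentage of annotated divergent gene pairs bound on each chromosome arm; right, percentage of bound promoter regions that hold a divergent pair. Bars are the list of both replicates, circles replicate 1's own list and squares replicate 2's; among the large arms drawn, X is lowest in both panels, at 7.44% on the left and 21.2% on the right.

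The summits of members lay in A/T-rich DNA. The window reaching 50 bp to either side of the summit had a GC content of 31.1 ± 9.40% (SD over 292 members), against 33.0 ± 9.65% at the 462 other promoters and 34.8 ± 10.1% at the 985 regions outside promoters. Windows 500 bp to either side of the members had 49.1 ± 9.74% (584 windows). In 21 bp windows, the A+T content of members was 69.7 ± 0.823% (SE over regions) at the summit and 50.6 ± 0.860% at 500 bp to the left, while at other promoters it was 68.6 ± 0.657% at the summit and 57.2 ± 0.682% at 500 bp to the left. The members thus differed from other promoters more in their flanks than at the summit.

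The midpoints of bound pairs had a higher A+T content than those of pairs that were not bound. With a gap of over 200 and up to 400 bp, the 21 bp at the midpoint had 76.5 ± 0.842% A+T in 162 bound pairs and 72.1 ± 0.469% in 780 pairs not bound (SE over pairs). In windows of 50 bp to either side of the midpoint the GC content was 25.4 ± 6.41% in bound pairs and 28.4 ± 8.41% in pairs not bound (SD). Over the whole gap it was 34.1 ± 4.600% and 34.4 ± 5.81% in the same order, so the difference lay at the midpoint and not in the gap as a whole. Over all gaps these midpoint windows had 31.5% GC in bound pairs and 33.8% in pairs not bound, with 31.2% against 33.7% by replicate 1's list and 30.9% against 33.7% by replicate 2's.

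**Figure D5:**
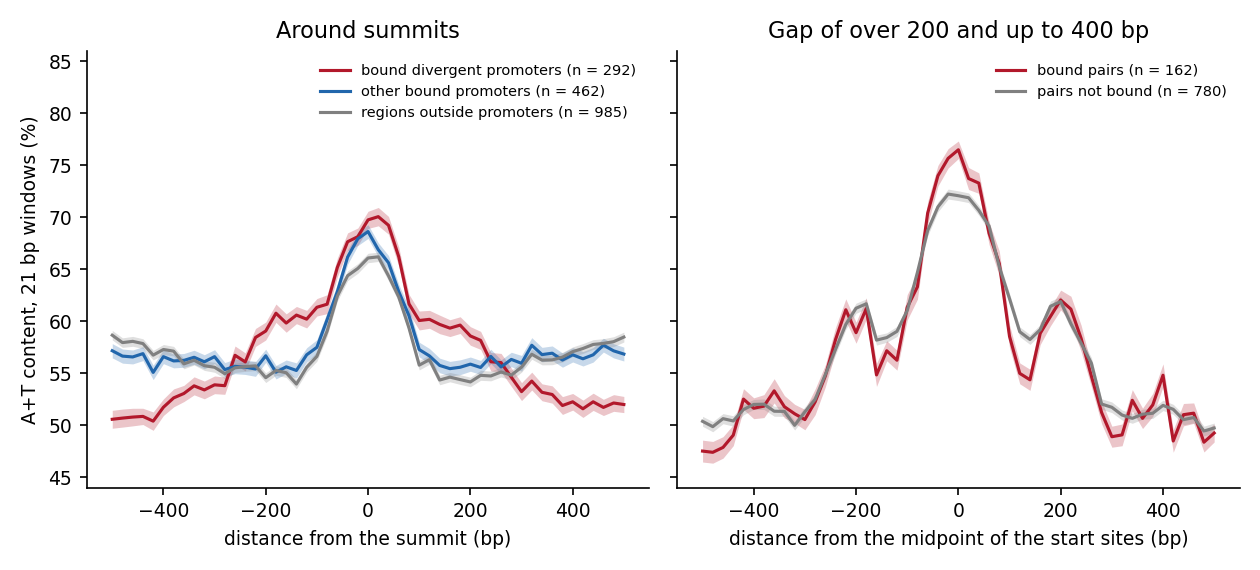
Mean A+T content in 21 bp windows. Left, by distance from the summit of bound divergent promoters, other bound promoters and regions outside promoters; right, by distance from the midpoint of the start sites in bound pairs and in pairs not bound, with gaps of over 200 and up to 400 bp. Bands are ± 1 SE over regions; the bound pairs reach 76.5% at the midpoint, above 72.1% in pairs not bound.

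The 12 motifs were searched by their letters on both strands. They were TATCGATA (the DNA replication-related element, DRE, bound by DREF), CGATA (the core of BEAF-32 sites, which is also part of every DRE), GGTCACAC (promoter motif 1, bound by M1BP), GTATNTTT and CATCNCTA (promoter motifs 6 and 7), the E-box forms CAGCTG, then CATATG, and also CACGTG, the GAGA factor element GAGAGAG, the TATA box TATAAA, the initiator TCAGT and the Zelda motif CAGGTAG. A match is a description of the sequence and not a site of binding. In the window of 50 bp to either side of all 19275 annotated TSSs of protein-coding genes, DRE was found in 4.48%, CGATA in 23.6%, motif 1 in 4.67% and TATAAA in 15.5%.

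The share of member summits with a promoter motif depended on the width of the window. Within 50 bp to either side of the summit, DRE was in 6 of 292 members (2.05%, 0.945 to 4.41%) and in 5 of 462 other promoters (1.08%, 0.463 to 2.51%). By replicate 1's own list the DRE shares were 0.866% and 0.896%, and by replicate 2's 1.96% and 0.865%, so the order did not hold in replicate 1. Within 100 bp to either side, DRE was in 6.85% (4.48 to 10.3%) of members and 1.52% (0.736 to 3.09%) of other promoters, beside 6.44% of windows of that width at all annotated TSSs. At this width, which was searched for the joint list alone, motif 7 was in 9.25% (6.43 to 13.1%) of members and 3.03% (1.81 to 5.02%) of other promoters, beside 4.46% at all TSSs. GAGAGAG was in 0.685% (0.188 to 2.46%) of members and 6.71% (4.77 to 9.37%) of other promoters, beside 4.68% at all TSSs. The wider windows thus gave member and other promoter intervals that did not overlap for these 3 motifs. The nearest TSS was a median of 96 bp from the summit in members and 198 bp in other promoters. The wider windows thus reached a TSS more often at members, and the shares were not matched for this distance. In the narrower windows all 3 had overlapping intervals, with motif 7 in 1.37% (0.534 to 3.47%) and 0.866% (0.337 to 2.20%) and GAGAGAG in 0.342% (0.0605 to 1.91%) and 1.52% (0.736 to 3.09%).

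CGATA was in 48 of 292 member summits (16.4%, 12.6 to 21.1%) and 53 of 462 at other promoters (11.5%, 8.88 to 14.7%) in the narrower windows, and in 34.9% (29.7 to 40.6%) and 22.9% (19.3 to 27.0%) in the wider ones. At all annotated TSSs it was in 23.6% of the narrower and 37.1% of the wider windows. These shares too were not matched for the distance to a TSS. In the narrower windows replicate 1's list gave 16.5% and 10.4% for CGATA, and replicate 2's 16.7% and 11.0%. Motif 6 kept no order, with 7.19% of members and 4.33% of other promoters in the joint list, 4.33% and 6.57% in replicate 1's list and 4.41% and 4.03% in replicate 2's. TCAGT likewise was in 14.4% and 17.3% in the joint list, 16.5% and 18.2% in replicate 1's and 17.6% and 15.9% in replicate 2's. Motif 1 was in 2 members and 2 other promoters, too few to set side by side. CAGGTAG was in 0 of 292 members at either width, which allows up to 1.30% by the Wilson interval, and 0.649% of other promoters had it in the narrower windows. TATAAA, itself made of A and T, was in 28.4% (23.6 to 33.9%) of member summits, 23.4% of other promoters and 4.79% of the members' flanks.

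The E-box CATATG had a lower share at member summits than at other summits. It was in 3 of 292 members (1.03%, 0.350 to 2.98%), against 19 of 462 other promoters (4.11%, 2.65 to 6.33%) and 46 of 985 regions outside promoters (4.67%, 3.52 to 6.17%). Replicate 1's own list gave 1.30% for divergent and 4.48% for other promoters, and replicate 2's gave 1.47% and 3.75%. The members' flanks held it in 2.40% of windows and all annotated TSSs in 2.09%. CAGCTG was in 3.77% (2.12 to 6.62%) of members and 2.16% of other promoters, below 7.53% (5.66 to 9.96%) of the members' flanks and 8.77% of all annotated TSSs. CACGTG was in 0.342% of members and 0.649% of other promoters, beside 1.37% of the flanks and 1.82% of all TSSs. The flanks and TSSs had a higher GC content than the member summits, and no correction was made for it. In the wider windows CATATG was in 3.08% (1.63 to 5.75%) of members and 7.36% (5.31 to 10.1%) of other promoters, intervals that overlap, and for CACGTG the order was the other way, at 2.05% and 1.73%.

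Between start sites over 200 and up to 400 bp apart, a larger share of bound pairs than of pairs not bound held CAGCTG. For motif 1 the share was smaller in bound pairs. Over the whole gap of pairs over 200 and up to 400 bp apart, CAGCTG was in 43 of 162 bound pairs (26.5%, 20.3 to 33.8%) and in 131 of 780 pairs not bound (16.8%, 14.3 to 19.6%). By replicate 1's list the shares were 30.4% and 16.6%, and by replicate 2's 32.7% and 16.7%. The matches in bound pairs were not at the midpoint. Their median distance to the nearer TSS was 28 bp in bound pairs and 35.5 bp in pairs not bound. None of the 162 bound pairs had CAGCTG within 50 bp of the midpoint, which allows up to 2.32% by the Wilson interval. Of the 780 pairs not bound, 21 had it there (2.69%, 1.77 to 4.08%). At the midpoints of pairs of all gaps, CAGCTG was in 5.44% (3.47 to 8.43%) of bound pairs and 6.93% (5.97 to 8.04%) of pairs not bound. Replicate 1's list gave 6.85% and 6.74% there, and replicate 2's 5.61% and 6.85%. Over the whole gap of the same class, CGATA was in 53.7% (46.0 to 61.2%) of bound pairs and 63.1% (59.6 to 66.4%) of pairs not bound. By replicate 2's list alone it was in 62.5% and 61.3%. DRE was in 13.6% (9.14 to 19.7%) and 19.5% (16.9 to 22.4%), with overlapping intervals. Motif 1 was in 3.70% (1.71 to 7.84%) and 9.49% (7.62 to 11.7%), intervals that just overlap, and by replicate 1's list in 4% and 9.18%, by replicate 2's in 2.88% and 9.19%. CATATG was in 4.32% (2.11 to 8.65%) and 9.10% (7.28 to 11.3%). The gap class was chosen with the binding shares known. Over pairs of all gaps, CGATA was within 50 bp of the midpoint in 15.1% (11.6 to 19.4%) of bound pairs and 24.8% (23.1 to 26.6%) of pairs not bound. Replicate 1's list gave 17.7% and 24.2%, and replicate 2's 17.8% and 24.1%. In the gap class these midpoint shares were 6.17% (3.39 to 11.0%) and 14.4% (12.1 to 17.0%). The all-gap shares were not matched for gap, and none was matched for GC content.

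The members held genes of many housekeeping families, and in the joint list the bound share of many families was near that of divergent genes in general. Of the 5052 genes in annotated divergent pairs, 608 were in a bound pair, which is 12.0%. By replicate 1's own list 477 of the 5052 were, and by replicate 2's 416, so single lists hold fewer genes in general. In the joint list the counts were 8 of 59 for mitochondrial ribosomal proteins (13.6%), 4 of 44 for the respiratory chain and ATP synthase (9.09%), 7 of 64 for vesicle traffic (10.9%), 3 of 27 for DNA replication and repair (11.1%), 2 of 18 for the nuclear pore (11.1%), 2 of 14 for rRNA processing and the exosome (14.3%), 3 of 20 for the ubiquitin system (15%) and 186 of 1757 for genes named only by a CG number (10.6%). Splicing factors had 2 of 31 (6.45%) and the proteasome 1 of 26 (3.85%). Several of these small counts changed by over 1.5 times in a single replicate's list. Replicate 1's list held 3 splicing, 0 proteasome, 1 rRNA processing and exosome and 1 ubiquitin system gene, and replicate 2's 1, 2, 1 and 1 in the same order. Replicate 2's list also held 1 gene of replication and repair and 4 of vesicle traffic. These counts are descriptions, since the families were chosen with earlier results of these data known.

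Cytoplasmic ribosomal protein genes had the most members of any family searched, apart from the genes named only by a CG number. Of 56 such genes in divergent pairs, 19 were in a bound pair (33.9%), beside 12.0% of all genes in divergent pairs. There were 14 by replicate 1's own list, 15 by replicate 2's and 12 in all 3 lists. Their signals were moderate: the 20 regions had a median joint signal of 100.1, beside 107.3 over all members. The strongest was Ripalpha/RpL7, with a joint signal of 251, 109 in replicate 1 and 141 in replicate 2. RpS27/Nup37 followed with a joint signal of 235, 105 in replicate 1 and 127 in replicate 2. RpL32/CG7943 had a joint signal of 172, with 93.2 in replicate 1 and 85.5 in replicate 2. The weakest, Rok/RpS19a, had 62.6, with 35.1 and 32.9.

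Mitochondrial ribosomal protein genes had fewer members, with higher signals. The 8 regions had a median joint signal of 370, and 7 of them were in both replicates' own lists. After mRpL41/CG8079 and Art3/mRpS10 came mRpS23/CenG1A, with a joint signal of 629, 318 in replicate 1 and 310 in replicate 2, and mRpL23/CG9004, with 508, 258 and 245 in the same order. mRpL24/betaggt-I had 232, mRpS2/Mon1 197, mRpL20/Icmt 162 and Cip4/mRpS6 107. At Cip4/mRpS6 replicate 1 had 34.7 and replicate 2 had 70.8, and only replicate 2's own list held it. Replicate 1 was the higher at 5 of these 8 regions.

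Genes of the transcription machinery had some of the higher shares in the joint list. Of the general transcription and Mediator genes 8 of 37 were bound (21.6%), beside 12.0% of all genes in divergent pairs. By replicate 1's list 6 were bound and by replicate 2's 5. The 8 of the joint list were Ssl1 of TFIIH, TfIIA-L of TFIIA, Taf2 and Taf5 of TFIID, and the Mediator subunits MED7, MED17, MED27 and MED30. After Chro/Ssl1, at 603, the highest was Taf5/Pex6 with a joint signal of 175, 81.0 in replicate 1 and 98.1 in replicate 2. RNA polymerase subunits had 4 of 19 (21.1%), Polr2B, Polr2H, Polr2J and Polr3E, with joint signals of 62.0 to 116, but 3 by replicate 1's list and 2 by replicate 2's. Insulator and chromosome architecture genes had 4 of 11 (36.4%), with 3 by each replicate's own list, of which Cp190, an insulator cofactor, had a joint signal of 188 at Cp190/CG4338, with 82.2 in replicate 1 and 106 in replicate 2. The others were Chro, pzg and M1BP, whose region had a joint signal of 73.9 and was in neither replicate's own list.

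Among genes of protein synthesis, aminoacyl-tRNA synthetases had 5 of 23 (21.7%) and translation initiation factors 4 of 21 (19.0%), beside 12.0% of all genes in divergent pairs. The synthetases numbered 5 by replicate 1's list and 4 by replicate 2's, while the initiation factors numbered 2 by each. The synthetase regions were of moderate strength, the highest being GluProRS/AP-1sigma with a joint signal of 131, 76.4 in replicate 1 and 60.2 in replicate 2. Of the initiation factors, eIF2Bbeta stood at the top of the list, and eIF5B (101.3), eIF3h (64.7) and eIF3a (61.9) were near or below the median of all members. Mitochondrial import had 1 of 5, and 0 in either replicate's own list. It was Tom7, a small subunit of the outer membrane translocase, whose region CG8229/Tom7 was the weakest member of all at 54.6.

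Of the 16 neuropeptide processing genes, the group closest to the known role of dimm, 6 were in divergent pairs. Of these, 2 were in bound pairs (33.3%), beside 12.0% of all genes in divergent pairs. In all, 4 of the 16 had a summit within 500 bp of a TSS of their own, 2 of them in no divergent pair. By the same measure 966 of all 13968 protein-coding genes (6.92%) were bound. Pdrg1/Pal1, with Pal1 an enzyme of peptide amidation, had a joint signal of 287, with 154 in replicate 1 and 130 in replicate 2. Fur1/Vps33B, with Fur1 a proprotein convertase of the furin type, had 171, with 75.9 in replicate 1 and 92.9 in replicate 2. Both were in both replicates' own lists. In each case the region lay between the start sites of the peptide gene and of a neighbouring gene, and the data do not say which gene the binding concerns.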

How the data were processed

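The authors deposited peak lists on dm6, per the labels: for each replicate a ranked list of candidates and a list thresholded on the irreproducible discovery rate, and the same for both replicates together. Column values used are the deposited peak signal, whose normalization is not given in the sources used here, and the summit offset. Of 1807 peaks of the conservative list, 1770 lay on the main chromosomes and were merged into 1739 regions. Coordinates are 1-based. TSSs came from Ensembl release 115 without transposable elements and bases from the Release 6 genome, in which 99.8% of 30618 start codons read ATG.

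Replicate signals came from each replicate's own ranked list and not, as planned, from the joint ranked list, whose columns are not named. The members, gene families and motifs were chosen with earlier results of these data known. The pair named for a member was that of the qualifying TSSs with the shortest gap between them. Names were given for the 15 strongest members and the strongest of each family. The extremes of gap and replicate ratio and the 3 regions either side of each limit were also named. Any other name was chosen after its values were seen. Every interval is a 95% Wilson interval, which covers counting error alone. No test was run over regions, which are not replicates. The rule and the motif search were tested on simulated data. Alternatives were each replicate's own list, the list not marked conservative, the stronger 50% of regions, a gap of 500 bp, 1 TSS per gene, 250 bp from a TSS, unmerged peaks, 50% overlap and motif windows of 100 in place of 50 bp to either side of the summit. Python 3.11.15, NumPy 2.4.6, SciPy 1.17.1 and Matplotlib 3.10.9 were used.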

Additional observations from a re-analysis of the deposited data

How the results depend on the processing

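The count of 292 members stayed within 1.5 times under each alternative (204 to 308) except the stronger 50% of regions, which left 174. The divergent share of bound promoters, 38.7%, moved beyond 1 SD of the replicates with a gap of at most 500 bp (31.7%), 1 TSS per gene (42.5%) and summits within 250 bp of a TSS (48.7%), which change the denominator or the pairs; the single-replicate lists gave 37.0% and 40.8%. The ratio of median signals was between 0.976 and 1.03 except at a gap of at most 500 bp (1.05). Summits between the TSSs were 75.3%, 73.6% and 75% in the single lists, 72.0% at a gap of 500 bp, 76.6% with 1 TSS per gene and 76.4% within 250 bp. Genes in pairs that were bound, 12.3%, were 8.27% to 9.50% in the single lists, 7.15% with the stronger regions, 13.8% at a gap of 500 bp, 10.9% with 1 TSS per gene and 10.04% within 250 bp, and genes in no pair, 3.88%, were 2.86% to 3.03%, 2.38%, 4.31%, 3.35% and 2.66% in the same order, and 4.004% in the list not marked conservative. Under every one of these settings the share was higher for genes in pairs. Bound pairs, 12.4%, were 8.02% to 9.30% in the single lists, 6.97% with the stronger regions and 13.6% at a gap of 500 bp. Lists with fewer regions give lower shares by construction. Members in both replicates' lists were 57.9%, and 56.8% with at least 50% of the member shared. Shares at summits moved with wider windows for 11 of the 12 motifs, and CAGGTAG remained at 0. Family counts moved by over 1.5 times for 14 of the 18 families with the stronger regions, 10 by replicate 2's list and 5 by replicate 1's.

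Depth is unknown, so the number of regions and their shares cannot be corrected for it. No control list was used here, and peaks that any GFP pull-down would give cannot be told apart from dimm binding. Both replicates come from 1 strain. A region names a pair by geometry, and distance does not show which gene a site concerns. Without a test over regions, differences between shares are descriptions whose intervals cover counting error only.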

Other observations

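Many divergent pairs outside the list had weak candidates. In the joint ranked list, 329 of 331 bound pairs had a candidate summit at the place the rule asks for, with a median strongest signal of 101.2. Of the 2336 annotated pairs not bound, 1477 (63.2%) had at least 1 such candidate, with a median strongest signal of 24.2. The joint ranked list holds 139701 candidates, and how often other DNA holds one was not counted. The 63.2% therefore does not show weak binding at these pairs. Signal entered the choice of the conservative list, so higher signals at bound pairs follow in part from that choice. A signal of at least 90 was reached by 189 bound pairs (57.1%) and by 5 of the pairs not bound (0.214%).

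Those 5 pairs sit at 4 places and had candidates in both replicates but no peak in any of the 4 thresholded lists. At eIF4EHP/CG18428, where eIF4EHP encodes a cap-binding protein, the joint candidate had a signal of 313, with 179 in replicate 1 and 132 in replicate 2. At Sirt6/pont, with pont a subunit of chromatin remodelling complexes, it was 220, with 126 and 92.7 in the same order. At CG4297/MED15 it was 137, with 59.5 and 75.2, and at RpL13A, which pairs with both Dph4 and Spec2, it was 107, with 38.4 and 70.0. Members with similar signals were listed, and the step that left these out is not given in the sources used here. They were chosen after their values were seen.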
